A study of Mus musculus with 2 samples.

Results

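The genes described here are 10 regulators of the G1 phase of the cell cycle and of growth arrest, measured in lung endothelial cells (ECs) of the mouse. They are 3 CDK inhibitors of the Cip/Kip family (Cdkn1a, Cdkn1b and Cdkn1c, which encode p21, p27 and p57), 1 CDK inhibitor of the INK4 family (Cdkn2b, p15), 3 GADD45 genes (Gadd45a, Gadd45b and Gadd45g), 2 D cyclins (Ccnd1 and Ccnd2) and Mdm2, the ubiquitin ligase that keeps p53 low. All 10 were chosen by their symbol and found in both count matrices, among 32285 gene IDs in all. The study asked how lung ECs change when melanoma cells arrive in the lung. C57BL/6 mice of wild type genotype were injected into the tail vein with 100 µl of phosphate-buffered saline alone (control) or holding 400000 B16-F10 cells, and lungs were taken after 6 h. B16-F10 is a melanoma line of mouse skin, and the injected cells carried the dye CellTracker green. The sort gathered lung cells that carried Pecam1, a surface protein of ECs, and lacked Ptprc, which marks leukocytes, and from tumour-injected lungs it also gathered the dyed cells. The labels give 2 mice per treatment and the methods of the study 3, and in either case the cells of a treatment were pooled, so that each group is 1 library of single-cell RNA sequencing and no replicate error exists. Both groups are of an intravenous model, in which tumour cells reach the lung at once and not from a primary tumour.

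D cyclins join CDK4 and CDK6 when a cell is told to grow, and the complexes inactivate the RB protein so that E2F factors can start DNA synthesis. INK4 proteins such as p15 hold CDK4 and CDK6 directly, whereas Cip/Kip proteins bind cyclin-CDK complexes, block CDK2 and can also help D cyclins and CDK4 assemble. Cdkn1a is a classical target of p53, but cytokines, growth factors and stress raise it too. GADD45 proteins are small stress sensors that bind PCNA, p21 and the kinase MTK1 (encoded by Map3k4), an upstream activator of p38 and JNK. Lung ECs of an adult are mostly quiescent.

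Cells were kept if they had 1000 to 5000 genes and less than 20% of their UMIs from mitochondrial genes (UMI, unique molecular identifier, a tag that counts 1 captured RNA molecule once), and doublets were removed. This left 7830 control and 7767 B16-F10 cells from libraries of 85794655 and 104978816 UMIs, and 18 barcodes occurred in both libraries. The cells were clustered without the genes described here and the clusters were named from markers. General capillary (gCap)-like ECs numbered 4677 and 4329, aerocyte capillary (aCap)-like ECs, which line the thin gas exchange surface, 1446 and 968, artery-like ECs 190 and 142, vein-like ECs 313 and 307, and lymphatic (LEC)-like ECs 58 and 51. The 8 endothelial markers were detected in every one of these classes in both libraries. Levels are UMI counts scaled to a total of 1000000 (CPM) of the summed cells of a class, with exact Poisson 95% intervals. A ratio divides the B16-F10 level by that of the control, is given as log2 and has an exact conditional binomial 95% interval. These intervals cover counting error only, and with 1 library per group no test was possible. A gene with at least 50 UMIs over both sums counted as higher or lower when it differed by at least 1.5-fold and its interval left out 0, and the share of all genes past this limit is the background.

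The 10 genes lie on 6 mouse chromosomes (GRCm38, the build mm10). Among the genes with the largest ratios, Gadd45g lies at chr13:51846678-51848468 on the plus strand, Gadd45b at chr10:80930073-80932204 on the plus strand and Cdkn1a at chr17:29090976-29100727 on the plus strand. Cdkn1b, the gene that was lower throughout, lies at chr6:134920401-134925513 on the plus strand. The others are Cdkn1c (chr7:143458339-143461050, minus strand), Cdkn2b (chr4:89306299-89311039, minus strand), Gadd45a (chr6:67035096-67037457, minus strand), Ccnd1 (chr7:144929931-144939925, minus strand), Ccnd2 (chr6:127125162-127152193, minus strand) and Mdm2 (chr10:117688875-117710758, minus strand). All are protein coding. None of the 10 overlaps another annotated gene on its own strand. On the opposite strand Cdkn1a, Cdkn1c, Gadd45a, Ccnd1 and Ccnd2 each overlap 1 or 2 other genes.

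The GADD45 genes are shown by the bases before their start sites, since the family differed so much in its ratios. RefSeq promoter windows (GRCm38.p6) were found for 7 of the 10 genes, and not for Cdkn1c, Ccnd1 and Ccnd2. Each window was read 5′ to 3′ on the strand of the gene over the 250 bases before the start, and bases within an annotated exon were left out. Capitals mark matches, on either strand, to the TATA box (TATAAA), the CCAAT box (CCAAT), an E-box (CACGTG), the AP-1 element (TGANTCA), the cAMP response element (TGACGTCA), the STAT element (TTCNNNGAA) and the octamer (ATTTGCAT), and no match overlapped another.
Gadd45a, chr6:67037458-67037657, minus strand: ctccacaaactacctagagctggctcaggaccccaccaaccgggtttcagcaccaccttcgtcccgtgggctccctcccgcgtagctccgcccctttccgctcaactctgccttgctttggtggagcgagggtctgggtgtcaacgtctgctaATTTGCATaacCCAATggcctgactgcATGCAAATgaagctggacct
Gadd45b, chr10:80929841-80930072, plus strand: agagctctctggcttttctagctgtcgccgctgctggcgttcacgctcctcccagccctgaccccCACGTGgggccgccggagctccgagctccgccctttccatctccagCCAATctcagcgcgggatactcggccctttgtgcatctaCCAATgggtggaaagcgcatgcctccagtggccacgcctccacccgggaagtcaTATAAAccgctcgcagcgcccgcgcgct
Gadd45g, chr13:51846425-51846674, plus strand: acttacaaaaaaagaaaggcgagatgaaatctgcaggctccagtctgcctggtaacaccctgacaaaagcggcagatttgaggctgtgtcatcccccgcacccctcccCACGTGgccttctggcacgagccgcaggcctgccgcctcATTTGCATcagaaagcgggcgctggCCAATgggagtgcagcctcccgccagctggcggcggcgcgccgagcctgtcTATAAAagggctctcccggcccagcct

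A CCAAT box lay in all 3 windows and in 33.8% of 32851 windows of all genes. The E-box was shared by Gadd45b and Gadd45g (6.02% of all windows), as was the TATA box (12.4%), at 46 and 27 bases before the RefSeq start. The printed Gadd45b sequence stops 18 bases short of that start, since an annotated exon covers those bases. Gadd45g shared the octamer (1.6% of all windows) with Gadd45a, which held it 2 times. Neither the AP-1 nor the STAT letters occurred in any of the 3 windows. A cAMP response element lay 46 bases before the start of Cdkn2b (1.55% of all windows). The matches describe letters only.

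In gCap-like ECs, the largest class, 6 of the 10 genes were higher in the B16-F10 library and 1 was lower. Gadd45g, Gadd45b, Cdkn1a, Ccnd1, Ccnd2 and Cdkn2b were higher and Cdkn1b was lower, while Cdkn1c, Gadd45a and Mdm2 stayed within 1.5-fold. Of all 13171 genes measured in this class, 7.64% were higher and 8.84% lower by the same rule. The median log2 ratio was 0.75 over the 10 genes and -0.04 over all genes. In aCap-like ECs 4 of the 10 genes were higher (background 6.04% of 11102 genes) and 1 was lower (7.39%). In artery-like ECs 8 of the genes had enough UMIs, of which 3 were higher (background 7.80%) and 1 was lower (6.82%). In vein-like ECs 1 of 7 was higher (4.72%) and 1 was lower (4.65%), and in LEC-like ECs 1 of 5 was higher (6.66%) and 1 was lower (6.03%). A gene that reached 50 UMIs only through the library where it was high had to differ, so the counts in the small classes are over the genes that could be read there. Ccnd2, the gene called higher in LEC-like ECs, was such a gene.

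**Figure D1:**
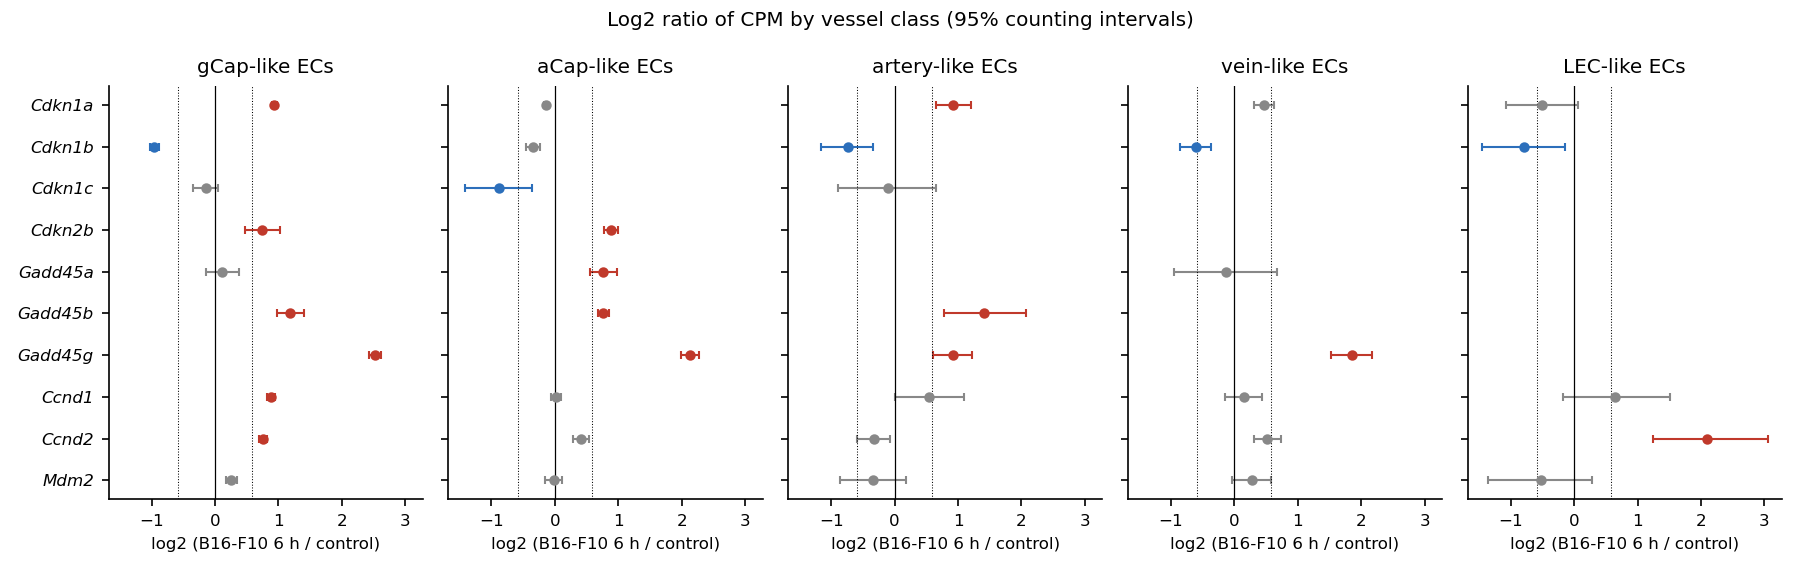
Log2 ratio of CPM, B16-F10 6 h over control, for each gene (rows) in each vessel class (panels), with 95% counting intervals and dotted lines at 1.5-fold; red points are higher, blue points lower and grey points neither by the rule of the text, and genes under 50 UMIs are left out. Gadd45g stands farthest right in gCap-like ECs at 2.52, Cdkn1b lies left of 0 in all 5 classes, and Cdkn1a lies at 0.93 in gCap-like but at -0.13 in aCap-like ECs.

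Among the Cip/Kip inhibitors, Cdkn1a and Cdkn1b differed in opposite directions in gCap-like ECs. Cdkn1a was at 222 CPM (95% interval 217 to 227) in the control and 423 CPM (417 to 430) in the B16-F10 library, a log2 ratio of 0.93 (0.89 to 0.97). Cdkn1b, which is most abundant in resting cells, was at 118 CPM (114 to 121) in the control and 60.7 CPM (58.2 to 63.2) in the B16-F10 library, a log2 ratio of -0.96 (-1.03 to -0.88). The intervals of the 2 libraries did not overlap for either gene. Cdkn1c, an imprinted inhibitor, was at 12.4 and 11.2 CPM, with a log2 ratio of -0.15 whose interval (-0.34 to 0.05) held 0.

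The level of Cdkn1a was far from even among vessels. In the control library aCap-like ECs held 1406 CPM of Cdkn1a (1386 to 1427), 6.34-fold above gCap-like ECs. Vein-like (162 CPM), LEC-like (135 CPM) and artery-like ECs (115 CPM) followed, and neighbours among these 3 had overlapping intervals. The vein-like interval (149 to 177 CPM) still lay above the artery-like one (97.9 to 133). In the B16-F10 library aCap-like ECs still held the most, at 1282 CPM (1261 to 1304), but only 3.03-fold more than gCap-like ECs. Artery-like ECs were at 218 CPM (193 to 244) there, a log2 ratio of 0.93 (0.65 to 1.21), and vein-like ECs held 224 CPM (209 to 240), a log2 ratio of 0.46 (0.30 to 0.63) that is below 1.5-fold. In LEC-like ECs Cdkn1a was at 95.6 CPM in the B16-F10 library and its interval (-1.08 to 0.07 on the log2 scale) held 0. The aCap-like ratio of Cdkn1a was -0.13 (-0.16 to -0.10), so that aCap-like and gCap-like ECs differed in direction. With every cell thinned to 2000 UMIs, so that deep cells no longer weigh more, the aCap-like ratio was 0.03. The direction over the class as a whole is therefore not settled. Within each of its 2 clusters Cdkn1a was lower beyond counting error (-0.34, -0.38 to -0.31, and -0.51, -0.80 to -0.22). No test compares the classes here, since each ratio rests on 1 library per group. The artery-like ratio of Cdkn1a fell below 1.5-fold, at 0.52, among cells with under 10% mitochondrial UMIs.

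Cdkn1b differed in the same direction in all 5 classes. Its control level ran from 101 CPM in artery-like to 131 CPM in aCap-like ECs, and every neighbouring pair of classes had overlapping intervals. That overlap passed through the wide LEC-like interval (89.8 to 154 CPM). The aCap-like level (125 to 138 CPM) already lay above the gCap-like one (114 to 121) beyond counting error. In the B16-F10 library artery-like ECs held 60.3 CPM, gCap-like 60.7, vein-like 68.2 and LEC-like 68.6 CPM, again with overlapping neighbours. There aCap-like ECs stood apart from every other class at 103 CPM (97.3 to 109), which is 1.51-fold above the next class. The log2 ratios were -0.74 (-1.15 to -0.34) in artery-like, -0.60 (-0.85 to -0.36) in vein-like, -0.79 (-1.45 to -0.15, from 57 and 33 UMIs) in LEC-like and -0.35 (-0.46 to -0.24) in aCap-like ECs. The last of these is below 1.5-fold. The vein-like ratio was -0.06 in cells without markers of other cell types and just under the limit, at -0.58, when centred on the median of all genes. The artery-like call was lost with cells thinned to 2000 UMIs (-0.42), and the LEC-like call with thinned cells (-0.72) and in cells without other markers (-0.71).

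Cdkn1c was highest in LEC-like (33.3 CPM in the control) and artery-like ECs (22.8 CPM) and low in both kinds of capillary. In aCap-like ECs it was at 7.79 CPM in the control and 4.23 CPM in the B16-F10 library, from 102 and 46 UMIs, and the log2 ratio was -0.88 (-1.42 to -0.36). With cells thinned to 2000 UMIs it was -0.43 and no longer past the limit. Free RNA was estimated to supply 10.6% of the B16-F10 value. A small EC cluster led by Fabp4, Rbp7 and Aqp7, which met no vessel class, held far more Cdkn1c than any class, at 360 CPM in 172 control cells and 185 CPM (128 to 259) in 30 B16-F10 cells.

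The INK4 gene Cdkn2b was close to an aCap gene. In the control library aCap-like ECs held 92.9 CPM (87.8 to 98.3) and gCap-like ECs 4.86 CPM (4.16 to 5.65), a 19.1-fold difference. The other 3 classes held 0 to 4 UMIs of it in either library, and in control LEC-like ECs the absence of a UMI allows a level of up to 6.24 CPM (3 counts). Cdkn2b was among the 10 leading genes of the main aCap-like cluster although it was kept out of the clustering. In the B16-F10 library aCap-like ECs held 171 CPM (164 to 179), a log2 ratio of 0.88 (0.78 to 0.99). The gCap-like value was 8.14 CPM (7.26 to 9.10), a log2 ratio of 0.74 (0.47 to 1.02). Free RNA was estimated to supply 13.9% and 11.4% of the gCap-like values, by a median that single marker lists exceeded. Without clusters 5 and 7, the gCap-like clusters most unevenly split between the libraries (70 and 1022 cells, and 797 and 185), the gCap-like ratio was 0.04. Of the 170 control and 308 B16-F10 UMIs in the class, cluster 5 held 0 and 168 and cluster 7 held 43 and 14. The call thus rests mainly on cluster 5, which is described below.

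**Figure D2:**
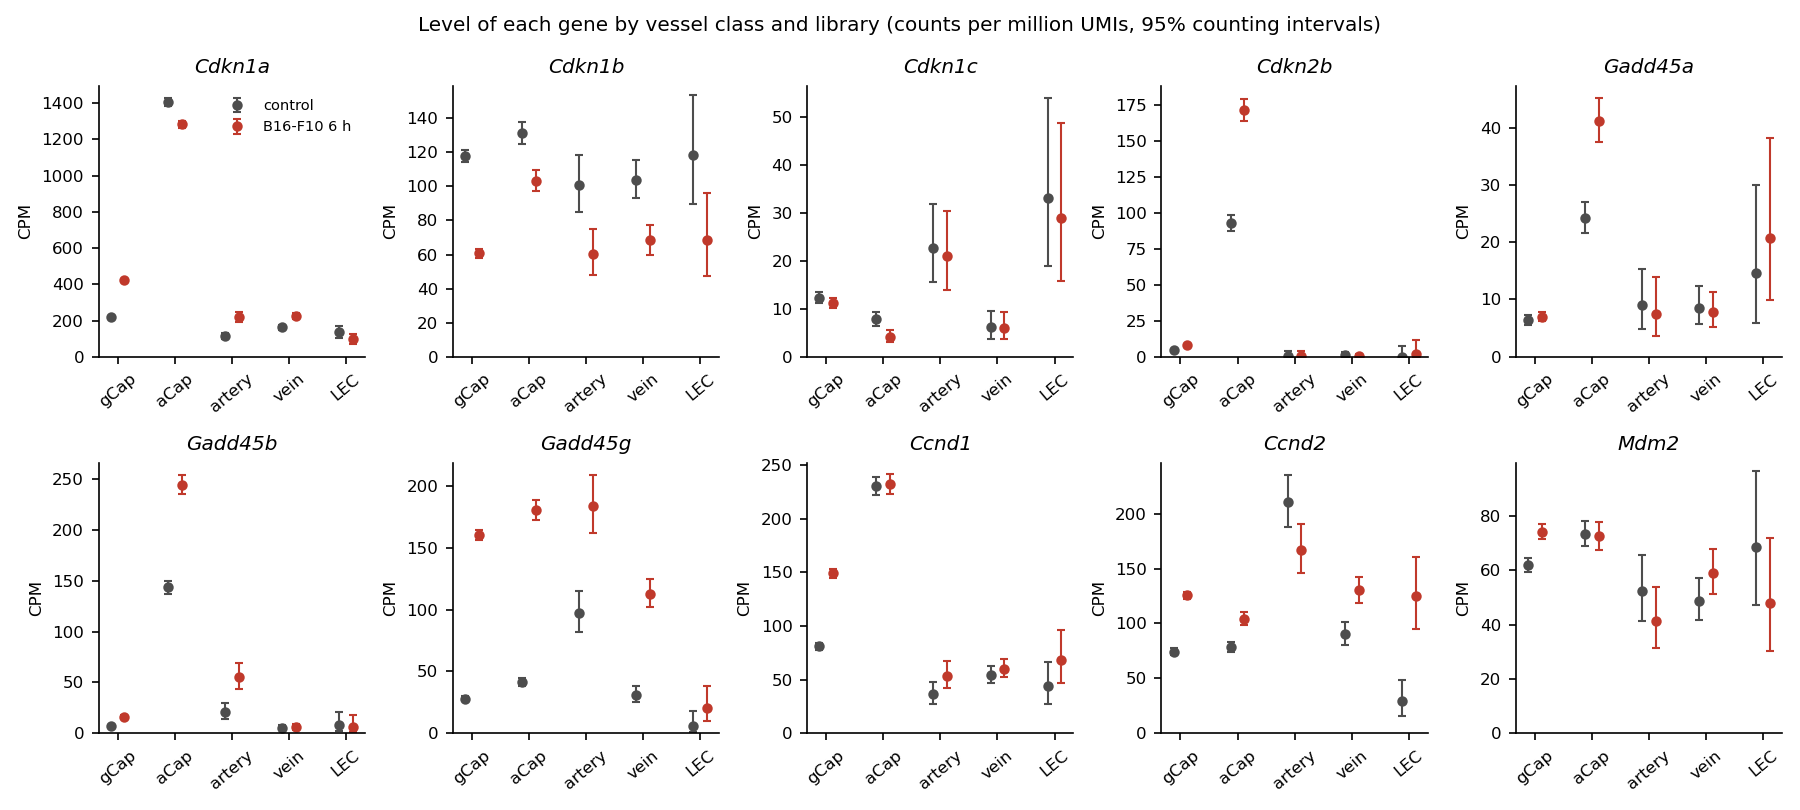
Level of each gene in CPM (vertical axis, linear, starting at 0 and scaled per gene) in the 5 vessel classes, with control in grey, B16-F10 6 h in red and 95% counting intervals as bars. Cdkn1a, Cdkn2b, Gadd45b and Ccnd1 are highest in aCap-like ECs in both libraries, and Ccnd2 in artery-like ECs. The red points of Gadd45g lie above the grey ones in all 5 classes, but in LEC-like ECs they rest on 3 and 10 UMIs and overlap.

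Within the GADD45 family the 3 genes had different places and different ratios. Gadd45g was at 28.0 CPM (26.2 to 29.8) in control and 160 CPM (156 to 164) in B16-F10 gCap-like ECs, a 5.73-fold difference or 2.52 (2.42 to 2.62) on the log2 scale. That ratio was the 61st highest of 13171 genes, with 0.456% of genes above it. In aCap-like ECs Gadd45g was at 41.3 and 181 CPM, a log2 ratio of 2.13 (1.99 to 2.27), and in vein-like ECs at 31.3 and 113 CPM, a log2 ratio of 1.85 (1.53 to 2.18). Artery-like ECs had the highest control level, 97.4 CPM (82.0 to 115), and the smallest ratio of these 4 classes, 0.92 (0.61 to 1.23), which was 0.22 and below the limit when doublets were kept. In the B16-F10 library artery-like and aCap-like ECs overlapped, at 184 and 181 CPM. LEC-like ECs held 3 and 10 UMIs, too few to read. Gadd45g is one of the markers that the study chose for its reactive capillary (rCap) cluster partly on these libraries, so its ratio is not independent of that choice.

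Gadd45b was mainly an aCap gene, and the study lists it among its aCap markers. It was at 144 CPM (137 to 150) in control and 244 CPM (235 to 254) in B16-F10 aCap-like ECs, a log2 ratio of 0.77 (0.68 to 0.85). Artery-like ECs came next at 20.7 CPM in the control and 55.0 CPM in the B16-F10 library, a log2 ratio of 1.41 (0.78 to 2.07) from 30 and 73 UMIs that was past the limit under 10 of 12 alternatives. In gCap-like ECs it was low, at 7.24 CPM (6.38 to 8.19) and 16.4 CPM (15.2 to 17.8), a log2 ratio of 1.18 (0.97 to 1.40). Free RNA was estimated to supply 16.6% and 11.4% of these values. The estimate takes free RNA as 2.63% and 3.08% of gCap-like UMIs, the median over 7 marker lists. Single lists gave up to 9.12% and 11.6%, so the shares could be larger. Vein-like ECs held 16 and 20 UMIs. Gadd45a, the p53-induced member of the family, was also highest in aCap-like ECs, where it was at 24.3 CPM (21.7 to 27.1) and 41.2 CPM (37.5 to 45.2), a log2 ratio of 0.76 (0.55 to 0.98). In gCap-like ECs Gadd45a was at 6.44 and 6.98 CPM, and the interval of its ratio (-0.15 to 0.38) held 0. The 3 family members thus had log2 ratios of 0.12, 1.18 and 2.52 in the same gCap-like cells.

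The D cyclins carry the growth signal to CDK4 and CDK6. Ccnd1 was at 80.9 CPM (77.9 to 83.9) in control and 149 CPM (145 to 153) in B16-F10 gCap-like ECs, a log2 ratio of 0.88 (0.82 to 0.95). In aCap-like ECs it was at 230 and 232 CPM, a log2 ratio of 0.01 (-0.06 to 0.09), an interval far inside 1.5-fold. The sign of that ratio changed under 3 of 13 alternatives. Within the aCap-like clusters described below, Ccnd1 was at -0.12 (-0.20 to -0.05) in cluster 1 and -0.20 (-0.73 to 0.28) in cluster 10. Vein-like ECs were at 54.3 and 60.1 CPM and the interval held 0. Artery-like ECs were at 36.6 and 53.5 CPM, a log2 ratio of 0.55 (0.01 to 1.09) just under 1.5-fold, which was past the limit under 6 of 12 alternatives. Ccnd2 was highest in artery-like ECs, at 211 CPM (188 to 236) in the control, and at 167 CPM (146 to 191) in the B16-F10 library, a log2 ratio of -0.33 (-0.59 to -0.08). That direction turned to 0.17 when the gene lists were kept among the clustering genes and to 0.16 among cells with under 10% mitochondrial UMIs. In the other classes Ccnd2 was higher in the B16-F10 library. It was at 74.4 and 125 CPM in gCap-like ECs (log2 ratio 0.75, 0.69 to 0.82), at 90.6 and 130 CPM in vein-like ECs (0.52, 0.31 to 0.74) and at 78.5 and 104 CPM in aCap-like ECs (0.41, 0.29 to 0.54). LEC-like ECs had the largest ratio of Ccnd2, 2.10 (1.24 to 3.05), from 14 UMIs in 58 cells to 60 UMIs in 51 cells. In the B16-F10 library the vein-like, gCap-like, LEC-like and aCap-like levels of Ccnd2 followed each other with overlapping neighbours. The LEC-like interval is wide (95.1 to 160 CPM), and the aCap-like level (98.5 to 111) lay below the gCap-like one (122 to 129) beyond counting error.

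Mdm2 is both a p53 target and the brake on p53. Its levels lay between 48.8 and 73.4 CPM over the 5 control classes, and every neighbouring pair of classes overlapped in both libraries. Classes further apart in the order did differ beyond counting error. In the control aCap-like ECs (68.8 to 78.1 CPM) lay above gCap-like ECs (59.4 to 64.6). In the B16-F10 library gCap-like ECs (71.4 to 76.9 CPM) lay above vein-like ECs (51.2 to 67.6). In gCap-like ECs Mdm2 was at 62.0 CPM (59.4 to 64.6) and 74.1 CPM (71.4 to 76.9), a log2 ratio of 0.26 (0.18 to 0.34) that is outside counting error and below 1.5-fold. In the other 4 classes the interval of the Mdm2 ratio held 0.

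**Figure D3:**
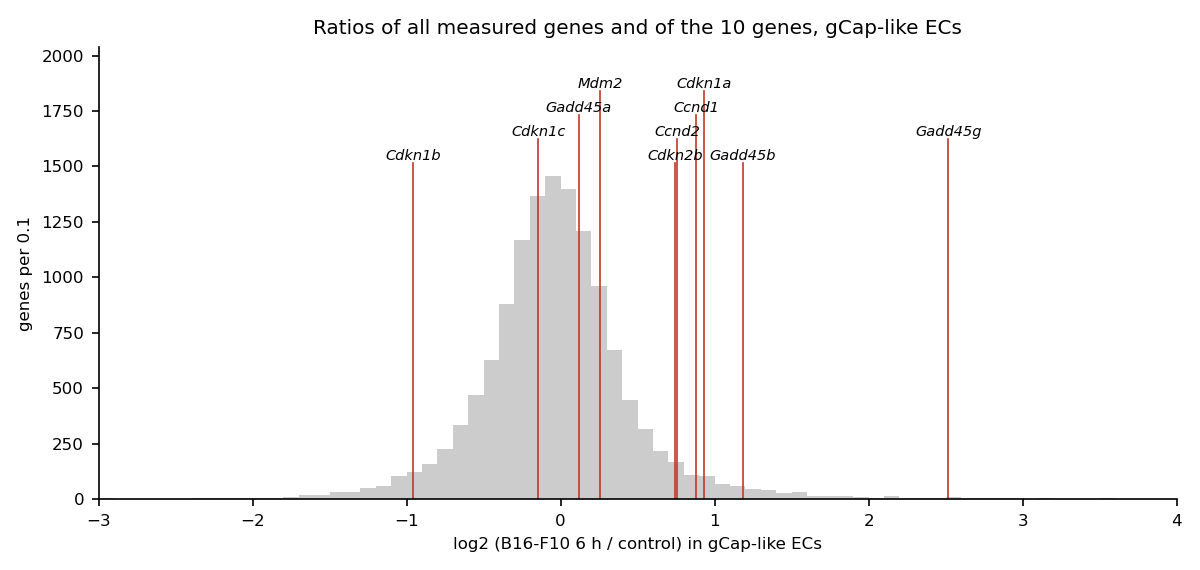
Number of genes (vertical axis) per 0.1 of log2 ratio, B16-F10 6 h over control, in gCap-like ECs (grey bars, genes with at least 50 UMIs), with the 10 genes as red lines. Gadd45g at 2.52 lies in the far right tail, Cdkn1b at -0.96 in the left tail, and Cdkn1c, Gadd45a and Mdm2 near the centre.

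The gCap-like class was made of 7 clusters, and different clusters held most of it in the 2 libraries. Cluster 5, led by Lalba, Tmem252, Inhbb and Pim3, held 70 control and 1022 B16-F10 cells, cluster 7, led by Gclm, 797 and 185, and cluster 4, led by Hilpda, 853 and 294. Cluster 2 held Ifit1 and Ifit3, genes induced by interferon, among its leading genes. Cdkn1a, Ccnd1 and Ccnd2 were higher in the B16-F10 library beyond counting error in all 7 clusters, with log2 ratios of 0.57 to 1.25, 0.62 to 1.20 and 0.51 to 1.02. Gadd45g was higher in all 6 clusters with at least 50 UMIs of it, by 1.37 to 2.60, and Gadd45b in 5 of 6. Cdkn1b was lower beyond counting error in 6 of 7 clusters, and its 7 ratios ran from -1.55 to -0.47. Among the B16-F10 cells of the 7 clusters, those of cluster 5 held the most Gadd45g, 336 CPM, and 33.1 CPM of Cdkn1b, whose interval overlapped that of cluster 8 (37.5 CPM). Its 70 control cells already held 130 CPM of Gadd45g, 374 CPM of Cdkn1a and no UMI of Cdkn2b (up to 5.29 CPM), against 17.5 CPM of Cdkn2b in its B16-F10 cells. Without clusters 5 and 7, an alternative chosen after seeing the data, the gCap-like log2 ratio was 2.08 for Gadd45g, 0.77 for Cdkn1a, -0.79 for Cdkn1b and 0.80 for Ccnd1.

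The aCap-like class had 2 clusters. Cluster 1, with a median of 11255 UMIs per cell, held 946 control and 900 B16-F10 cells, and cluster 10, with a median of 4613 UMIs, held 500 and 68. In cluster 1 Cdkn1a was at 1665 CPM in the control and 1313 CPM in the B16-F10 library, and in cluster 10 at 463 and 326 CPM. The ratio was thus lower within each cluster (log2 -0.34 and -0.51) than over the class as a whole (-0.13). Within cluster 1 alone, chosen after seeing the data, 2 genes were at least 1.5-fold higher, Gadd45g (log2 1.91) and Cdkn2b (0.68), whereas Gadd45b (0.57) and Gadd45a (0.55) came to just under that limit.

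**Figure D4:**
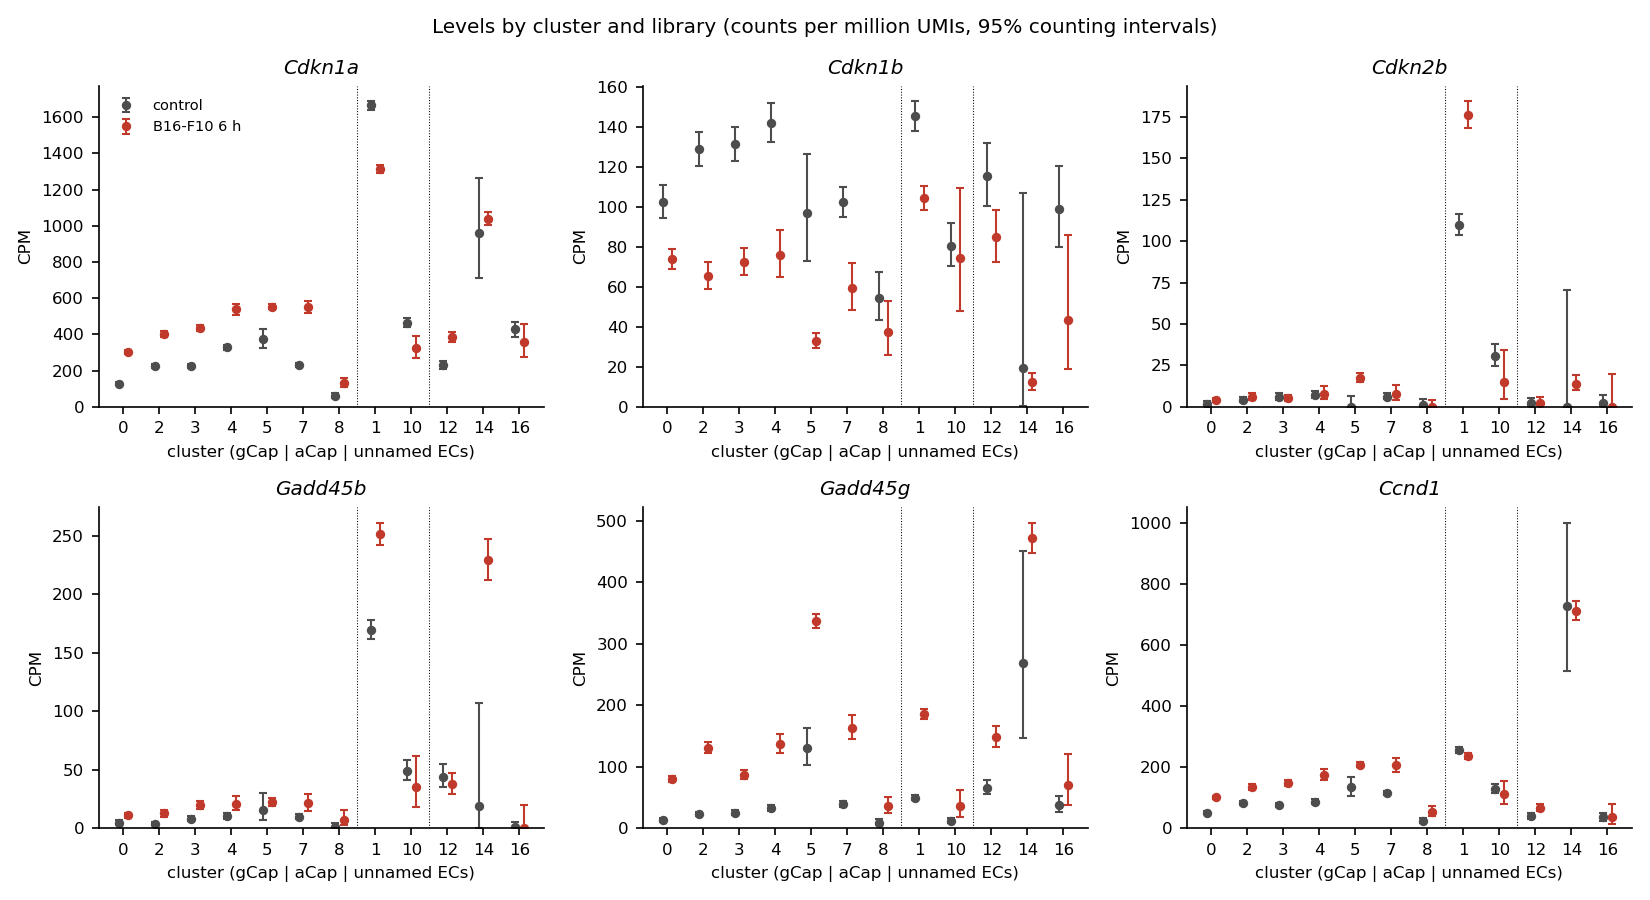
Level in CPM of 6 of the genes in each EC cluster of the gCap-like (left), aCap-like (middle) and unnamed ECs (right of the second dotted line), control in grey and B16-F10 6 h in red, with 95% counting intervals. Red points of Cdkn1a, Gadd45g and Ccnd1 lie above the grey ones in each gCap-like cluster, and cluster 14 has the highest B16-F10 levels of Gadd45g and Ccnd1.

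Cluster 14, an EC cluster of no named vessel class led by Sox9, Csf2 and Fosl1, held 6 control and 293 B16-F10 cells. Its B16-F10 cells had the highest Ccnd1 (712 CPM, 682 to 743) and Gadd45g (471 CPM, 446 to 497) of any EC cluster. They also had the lowest Cdkn1b (12.3 CPM, 8.62 to 17.0), together with 1039 CPM of Cdkn1a and 229 CPM of Gadd45b. Its 6 control cells already held 730 CPM of Ccnd1 (38 UMIs) and 960 CPM of Cdkn1a (50 UMIs). The ratio intervals of Ccnd1, Cdkn1a and Cdkn1b (1 control UMI) held 0. Those of Gadd45g (0.06 to 1.68) and Gadd45b (1.09 to 8.88, from 1 control UMI) did not. The melanoma-like cluster, which also carried macrophage markers, held 114 B16-F10 and 6 control cells. The B16-F10 cells had 301 CPM of Ccnd2, 223 CPM of Cdkn1a, 75.2 CPM of Ccnd1 and 1 UMI of Cdkn2b in 1383636. The control cells, with 7 of 8 melanoma markers at 0, had 386, 820 and 241 CPM and 18 UMIs of Cdkn2b. In the B16-F10 cells the macrophage marker Lyz2 (6270 CPM) was close to Dct (6137 CPM). The values are therefore not of melanoma cells alone.

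To compare the cells at equal depth, each cell was thinned to 2000 UMIs. This left out 62 control and 30 B16-F10 gCap-like cells and 18 and 6 aCap-like cells. In gCap-like ECs a UMI of Gadd45g was found in 4.98% of the control cells (Clopper-Pearson 95% interval 4.37 to 5.65) and 21.4% of those in the B16-F10 library (20.2 to 22.6), where free RNA would give 0.210% and 1.35%. Unthinned, at median depths of 7281 and 8450 UMIs, the shares were 14.2% and 47.0%. For Cdkn1a the thinned shares were 27.6% and 45.1%, for Ccnd1 11.7% and 20.3%, and for Ccnd2 11.4% and 18.1%. For Cdkn1b they were 20.1% (18.9 to 21.3) and 10.7% (9.81 to 11.7). Mean UMIs among the cells with any were 1.56 and 1.86 for Cdkn1a and 1.14 and 1.47 for Gadd45g. Both the share of cells and the UMIs per positive cell were larger. An even rise in every cell would raise both in such sparse counts, so they cannot tell more cells from more UMIs per cell. In aCap-like ECs 74.6% of the control and 82.6% of the B16-F10 cells had a UMI of Cdkn1a, and 27.8% and 26.2% had 4 or more, so the share with any UMI went against the CPM and no order is read from it. Cdkn2b was found in 13.7% and 24.8% of aCap-like ECs and Gadd45b in 19.6% and 33.3%. Vein-like ECs, thinned in the same way, had a UMI of Gadd45b in 0.319% and 0.326% of cells, where free RNA would give 0.133% and 0.409%, and of Cdkn2b in 0.319% and in 0 of 307 cells. Unthinned, at median depths of 9980 and 11195 UMIs, the vein-like shares were 3.83% and 6.19% for Gadd45b and 1.28% and 0.326% for Cdkn2b. Over the 45 pairs of the 10 genes, correlations of log2(UMIs + 1) across thinned cells of 1 class and library were between -0.07 and 0.19, too weak in such sparse counts to be read.

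**Figure D5:**
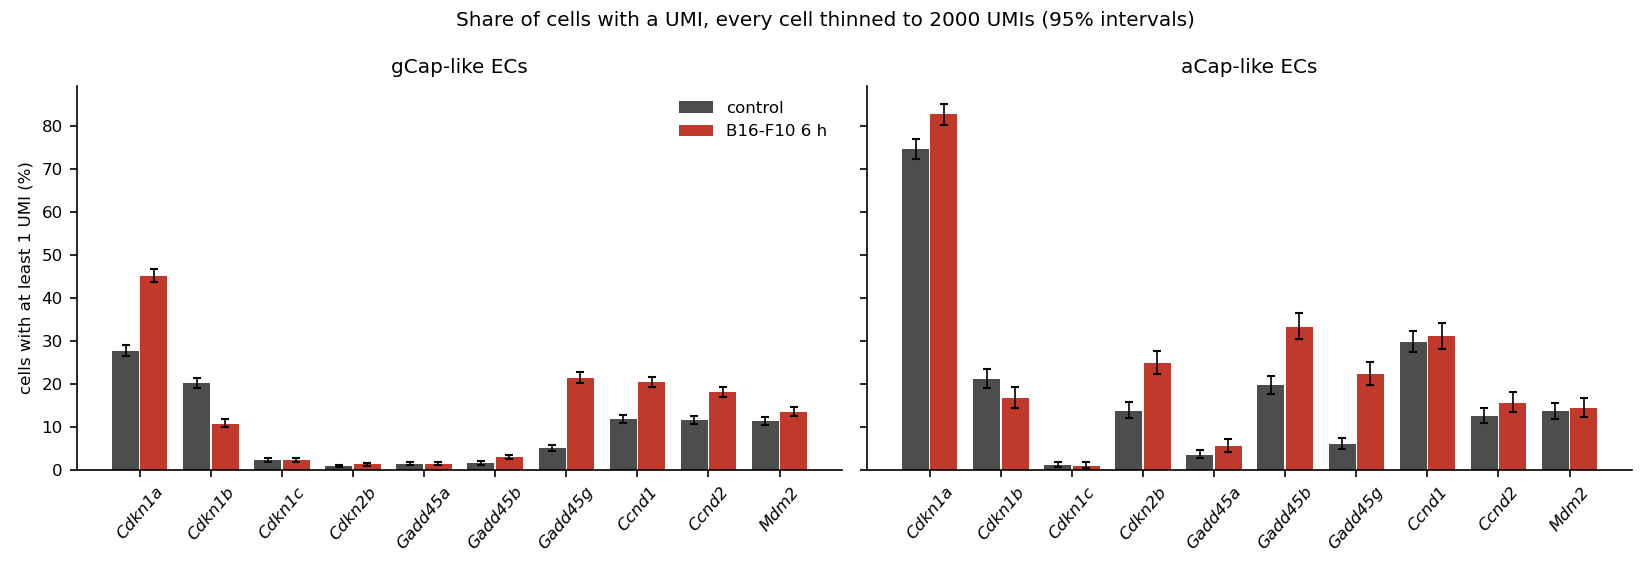
Share of cells (%) with at least 1 UMI of each gene after thinning every cell to 2000 UMIs, in gCap-like (left) and aCap-like ECs (right), control in grey and B16-F10 6 h in red, with Clopper-Pearson 95% intervals. In gCap-like ECs Gadd45g is at 4.98% and 21.4% and Cdkn1b at 20.1% and 10.7%.

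The rest of the pathway was read from lists of other genes, with the same rule, in gCap-like ECs. Of all genes measured in this class 7.64% were higher and 8.84% lower. Of 24 measured p53 target genes 6 were higher and 3 lower, with a median log2 ratio of 0.15. Aen, a nuclease gene (1.06), Btg2, an antiproliferative gene (0.92) and Plk2, a kinase gene (0.70) had the largest positive ratios, and Sesn1 (-0.73), Trp53inp1 (-0.68) and Ppm1d, the phosphatase that turns p53 off (-0.60), the largest negative ones. Among 16 G1 cyclins, CDKs and RB-E2F genes none was higher and 4 were lower. E2f7, a repressor E2F (-1.34), Ccne2, which encodes cyclin E2 (-1.02) and Rbl2, which encodes the RB relative p130 of quiescent cells (-0.91) led these. None of the 4 other CDK inhibitors measured passed the limit in either direction.

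Among 11 measured S phase and mitosis genes 2 were higher and 1 lower (background 7.64% and 8.84%). Ccnb2 (10 and 40 UMIs) and Top2a (32 and 87 UMIs) were the higher ones, at levels of at most 2.30 CPM over the whole class. Ccnb2 met the lower limit on total UMIs only through the B16-F10 library, where it was high. It could thus be measured only if it differed, so its call is not read as a rise. Mcm7 of the replication helicase was the lower one (20.3 and 11.8 CPM). Cluster 6, with Cenpf, Top2a and Prc1 among its leading genes, is not part of these counts. It held 299 control and 775 B16-F10 cells and was left out of every vessel class, since it met red cell markers besides endothelial ones. The S phase and mitosis values of gCap-like ECs thus leave out cells of that cluster. Of 12 genes of the GADD45 partners and stress MAP kinases 1 was higher, Mapk11, which encodes p38 beta (log2 ratio 1.19), and 2 were lower, Map2k6, an activator of p38 (-0.98) and Map3k5, which encodes ASK1 (-0.88). In the list of turnover of p21, p27 and D cyclins 1 of 15 genes passed the limit, Skp2, the F-box gene for p27 degradation, which was lower (6.24 and 3.67 CPM, log2 ratio -0.76). Of 8 FOXO and BTG/TOB genes Btg1 was higher (0.60). Btg4 (-1.84, from 66 and 20 UMIs) and Foxo3 (-0.59), a FOXO factor known to act on Cdkn1b, were lower. Btg4 met the lower limit on total UMIs only through the control library, where it was high, so its call is not read either. In the other 4 vessel classes 0 to 24 genes of each of these lists were measured. Of those, 0 to 5 were higher and 0 to 2 lower. The background there was 4.72% to 7.80% higher and 4.65% to 7.39% lower.

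Genes that respond to tissue dissociation moved with these results. Of 18 such genes 12 were higher and 2 lower in gCap-like ECs (background 7.64% and 8.84%), with a median log2 ratio of 1.36. Egr1 (3.76), Socs3 (2.94) and Atf3 (2.73) had the largest ratios, and the heat shock genes Hspa1b (-1.45) and Hspa1a (-0.74) were lower. Their summed level was 3520 CPM in the control and 6851 CPM in the B16-F10 library in gCap-like ECs, 3657 and 5796 CPM in aCap-like, 4218 and 5398 CPM in artery-like, 5636 and 9741 CPM in vein-like and 1921 and 2651 CPM in LEC-like ECs. None of the 18 was at 0 in gCap-like ECs. Their part in the results was not tested. The 8 melanoma markers summed to 26.8 and 55.1 CPM in gCap-like ECs, with Mlana, Tyrp1 and Slc45a2 at 0 in the control, and the 7 macrophage markers to 16.3 and 29.6 CPM, with C1qa at 0 in the control. In the 3276 and 1797 gCap-like cells with no UMI of platelet, mural, macrophage, neutrophil or melanoma markers other than Mitf, the log2 ratio was 2.49 for Gadd45g, 0.96 for Cdkn1a and -0.94 for Cdkn1b.

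By the likeness of their pattern over the 10 sums of class and library (Pearson correlation of log2(CPM + 1) among 3645 genes, with no test, since the sums share 2 libraries), Mef2a (0.98), Cmtm6 (0.98) and Sema3f (0.97) came nearest to Cdkn1a. Tap2 (0.93), Tapbp (0.90) and Mrps33 (0.90) came nearest to Gadd45g, Pcmt1 (0.98), Dync1h1 (0.97) and Arhgef3 (0.96) to Cdkn2b, and Tmem245 (0.94), Pnpla8 (0.92) and Tmem50a (0.91) to Cdkn1b.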

How the data were processed

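Lung cells of 2 treatments were measured, with 1 library each. The authors deposited raw UMI counts per gene and barcode, aligned to mm10. The submitters' processing notes name Cell Ranger 7.2.0 and Seurat 4.4.0, and the methods of the study Cell Ranger 2.1.1. Cells of 1000 to 5000 genes with under 20% mitochondrial UMIs were kept (8394 and 8321), Scrublet removed 564 and 554 doublets, and cells were clustered within scanpy 1.11.5 (2912 genes, 30 components, 20 neighbours, Leiden resolution 0.8). Counts were summed per class and compared as CPM, with exact intervals from scipy 1.17.1 that cover counting error only, and the ratio and thinning steps were tested on simulated data. Free RNA was estimated from near-empty barcodes and genes of cell types a class should lack, as the median over 7 marker lists. It is a central estimate and no upper limit. Cells were digested before sorting. All 10 genes were described, with further genes from lists by their ratio among those past 1.5-fold. The genes and lists were chosen with earlier results of these data known.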

Additional observations from a re-analysis of the deposited data

Results flagged for a closer look

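The ratio of 2 genes had opposite directions in different vessel classes, and these differences were not tested, since each class has 1 library per group. The log2 ratio of Cdkn1a was -0.13 in aCap-like ECs, whereas gCap-like ECs had 0.93, artery-like ECs 0.93 and vein-like ECs 0.46. The aCap-like value was 0.03 with cells thinned to 2000 UMIs, but -0.34 and -0.51 within its 2 clusters. The log2 ratio of Ccnd2 was -0.33 in artery-like ECs, whereas gCap-like ECs had 0.75, aCap-like ECs 0.41, vein-like ECs 0.52 and LEC-like ECs 2.10, but the artery-like value changed sign under 2 of 12 alternatives (0.16 and 0.17).

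Barcodes outside the limits on gene number, which no comparison above used, held more of some genes and less of others in the B16-F10 library. In barcodes of at least 300 but under 1000 genes (1750 and 2590 barcodes) the higher ones were Cdkn1a at 319 CPM against 261 in the control, Gadd45b at 38.9 against 17.7, Gadd45g at 105 (log2 ratio 2.32), Ccnd1 at 312 against 197, and Ccnd2 at 189 against 91.6. Cdkn2b also had a log2 ratio of 0.91 (0.17 to 1.70), whereas the ratios of Cdkn1b (-0.78, -1.13 to -0.44), Cdkn1c (-0.60, -1.15 to -0.05) and Gadd45a (-0.38, -0.66 to -0.10) lay below 0. In barcodes of more than 5000 genes (348 and 645) the higher ones were Cdkn1c at 31.2 CPM against 19.0 in the control, Gadd45g at 136 against 41.9, Ccnd1 at 182 against 140, Ccnd2 at 182 against 108, and Mdm2 at 74.5 against 62.3, whereas the log2 ratios of Cdkn1b (-0.66, -0.78 to -0.53) and Cdkn1a (-0.07, -0.12 to -0.02) lay below 0. These barcodes were not assigned to cell types.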

How the results depend on the processing

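No paired analysis was possible because there was a single library on either side. For the same reason no replicate could be left out. Library, mice and treatment cannot be told apart, so that a large count gives a narrow interval and no measure of variation between animals. In gCap-like ECs the number of the 10 genes at least 1.5-fold higher was 5 or 6 under every alternative run, against 6, and the number lower was 1 except with all ECs summed as 1 class, where it was 2. In aCap-like ECs the number lower was 0 with cells thinned to 2000 UMIs, and the number higher was 2 without cluster 10. In artery-like ECs the number higher was 1 with doublets kept, and the number lower was 0 with thinned cells. In vein-like ECs the number higher was 2 with thinned cells and 3 in cells without other markers, and the number lower was 0 there and with ratios centred on the median of all genes. In LEC-like ECs the number higher was 2 with doublets kept and 0 with thinned cells or in cells without other markers, and the number lower was 2 with cells of at least 500 genes and 0 with thinned cells or in cells without other markers. Thinning and the marker filter leave fewer UMIs, and the cause of the other shifts was not tested. With the gene lists kept among the clustering genes Cdkn2b in gCap-like ECs was at 0.06 on the log2 scale, and with all ECs summed Cdkn1a was at 0.25. The alternatives without clusters 5 and 7 and without cluster 10 were chosen after seeing the data. In artery-like ECs Ccnd1, not called above, was past the limit under 6 of 12 alternatives. No gene called higher became lower, or the reverse, under any alternative run.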
